A study of Mus musculus with 7 samples.

Results

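The genes described are the heat shock proteins and their co-chaperones, 66 of the 12958 gene symbols measured in glomeruli of Shroom3 knockdown and control mice. They are all symbols that begin with Hspa, Hspb, Hsph, Hspd, Hspe, Hsp90, Dnaja, Dnajb, Dnajc or Bag followed by a digit or the letter a or b. Glomeruli, the filtering units of the kidney, were isolated by bead perfusion, a magnet and sieving from 7 male BALB-C mice. The knockdown mice (n = 3) had an siRNA transgene against Shroom3, the gene of an actin-binding junction protein, and the control mice (n = 4) were littermates without it. All mice, controls too, ate and drank doxycycline from 8 weeks of age, for 6 weeks, and were 14 weeks old at the end. Which promoter drives the transgene, and in which cells, the sources used here do not give. The rule took in 12 Hspa and Hsph genes, 3 Hsp90 genes, 4 genes beginning with Hspb, Hspd1 and Hspe1, 4 Dnaja, 9 Dnajb, 26 Dnajc and 6 Bag genes. Hspbap1 entered through its spelling: it is named for binding a small heat shock protein and is not itself one.

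Heat shock proteins keep other proteins folded. Hsp70 proteins, encoded by the Hspa genes, bind unfolded stretches in cycles of ATP use. J-domain proteins, encoded by the Dnaja, Dnajb and Dnajc genes, bring clients to Hsp70 and start ATP hydrolysis, while Bag proteins and the Hsp110 proteins (Hsph1, Hspa4 and Hspa4l) release the nucleotide. Hsp90 matures kinases and receptors, small heat shock proteins hold unfolding proteins and bind actin filaments, and Hsp60 with Hsp10 (Hspd1 and Hspe1) folds proteins inside mitochondria. Unfolded protein in the cytosol raises many of these genes through the factor Hsf1 and heat shock elements in their promoters, and unfolded protein in the endoplasmic reticulum (ER) raises the ER members through ER stress elements. In podocytes, the epithelial cells of the filtration barrier, Hspb1 has been studied for its part in actin regulation.

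Promoter windows, from 250 bases before to 50 bases after a RefSeq gene start on GRCm38.p6, were found for 53 of the 66 members. The rest, among them Hspa8, Hspa9, Hspa13, Hsp90aa1 and Hsp90ab1, had no window and were not searched. A heat shock element was searched on both strands as GAA, any 2 bases, TTC, any 2 bases and GAA. It was held by 4 of the 53 members (7.55%), Dnajb6, Hspd1, Hspe1 and Hsph1, and by 0.662% of all genes with a window. The shorter form of GAA, any 2 bases and TTC was held by 12 members (22.6%), against 9.04% of all genes with a window. These were the 4 above and Bag3, Dnaja1, Dnaja4, Dnajc27, Hspa1a, Hspa1b, Hspb1 and Hspb8. The 13-base element of Dnajb6 lay at chr5:29735852-29735864 on the plus strand. An ER stress element was searched on both strands as CCAAT, any 9 bases and CCACG. It was held by 3 members (5.66%), Dnajc3, Hsp90b1 and Hspa5, against 0.137% of all genes with a window. Matches are matches of letters and were not tested as binding sites. The windows of Hspe1 (chr1:55087898-55088197, plus strand) and Hspd1 overlap on opposite strands and share the element, shown in capitals in the Hspe1 window, where the 2 overlapping matches run together. In Hsph1 (chr5:149636287-149636586, minus strand) the match, in capitals, lay within the 50 bases after the gene start. The ER stress elements are shown with the parts that the search fixed in capitals.
Hspe1: ['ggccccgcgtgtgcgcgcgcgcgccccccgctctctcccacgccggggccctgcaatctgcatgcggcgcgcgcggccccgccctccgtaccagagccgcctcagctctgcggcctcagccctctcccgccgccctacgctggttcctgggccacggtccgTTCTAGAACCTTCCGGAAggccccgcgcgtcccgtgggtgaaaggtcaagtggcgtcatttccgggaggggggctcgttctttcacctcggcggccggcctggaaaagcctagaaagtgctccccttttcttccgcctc']
Hsph1: ['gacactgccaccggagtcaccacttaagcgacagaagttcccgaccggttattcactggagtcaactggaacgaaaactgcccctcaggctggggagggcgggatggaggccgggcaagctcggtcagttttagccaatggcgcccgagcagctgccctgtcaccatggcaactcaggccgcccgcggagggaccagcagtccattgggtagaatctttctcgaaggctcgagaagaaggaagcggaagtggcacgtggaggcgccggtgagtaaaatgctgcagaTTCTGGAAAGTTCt']
Hspa5 (chr2:34772025-34772043, plus strand): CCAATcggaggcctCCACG
Hsp90b1, the first of 2 matches (chr10:86705638-86705656, minus strand): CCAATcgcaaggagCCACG
Dnajc3 (chr14:118937827-118937845, plus strand): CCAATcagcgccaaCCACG

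Each library held a log value for every gene, read as log2 because the base is not stated, and every fold and antilogarithm below rests on that reading. Library medians were from 9.15 to 9.16. Depth and counting error are unknown, as no read counts were used. Values carry no stated length correction and are compared between animals only, never between genes. Sample titles began with G in 5 libraries (2 knockdown, 3 control) and with CB6 in the other two (1 knockdown, 1 control). The CB6 pair, knockdown replicate 3 and control replicate 4, deviated from their group means in opposite directions across genes (correlation -0.958). In members such as Dnajc13, Dnajc12, Hspa1a and Hspa8, the CB6 pair averaged nearly the same as the 5 libraries titled G. Where that holds, the CB6 values are not free of each other: when 1 is above that level, the other is below. Within-title values therefore stand beside the calls. Shroom3 was at 10.80, 10.91 and 10.89 in knockdown and 10.94, 10.85, 11.36 and 11.06 in control libraries (log2 fold change -0.19, 95% CI -0.44 to 0.07; limma with Benjamini-Hochberg adjustment, adjusted p = 0.417). The targeted transcript therefore did not check the labels, and groups are named as labelled. All 10 podocyte markers and all 9 glomerular endothelial markers were measured, as were all 10 proximal tubule markers.

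Of the 66 members, 4 passed the threshold (an adjusted p of 0.05 over all genes, by the Benjamini-Hochberg method in limma): Dnajc13 and Bag4 rose, and Dnajc12 and Dnajb5 fell. Over all genes 3.02% passed, 0.996% higher and 2.02% lower in knockdown, and the members' 6.06% rests on these 4 genes. With title style as a covariate, Dnajc13 and Dnajc12 still passed, while Bag4 and Dnajb5 did not. In the fit without that covariate, 9 members (13.6%) had an unadjusted p under 0.05 (limma), against 18.4% of all genes. The median log2 fold change of the members was 0.030, against 0.024 over all genes, and 61 of 66 lay within 0.3 of 0. No Hspa, Hsph, Hsp90, Hspb, Hspd, Hspe or Dnaja gene passed, and 0 of these had an unadjusted p under 0.05. Hspa12b, an Hsp70-like gene, had the most negative value of its family, -0.25 (95% CI -0.70 to 0.19), and Bag5 differed by 0.11 (95% CI -0.11 to 0.33). In bulk glomeruli, fewer cells of a type and less RNA per cell cannot be told apart.

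**Figure D1:**
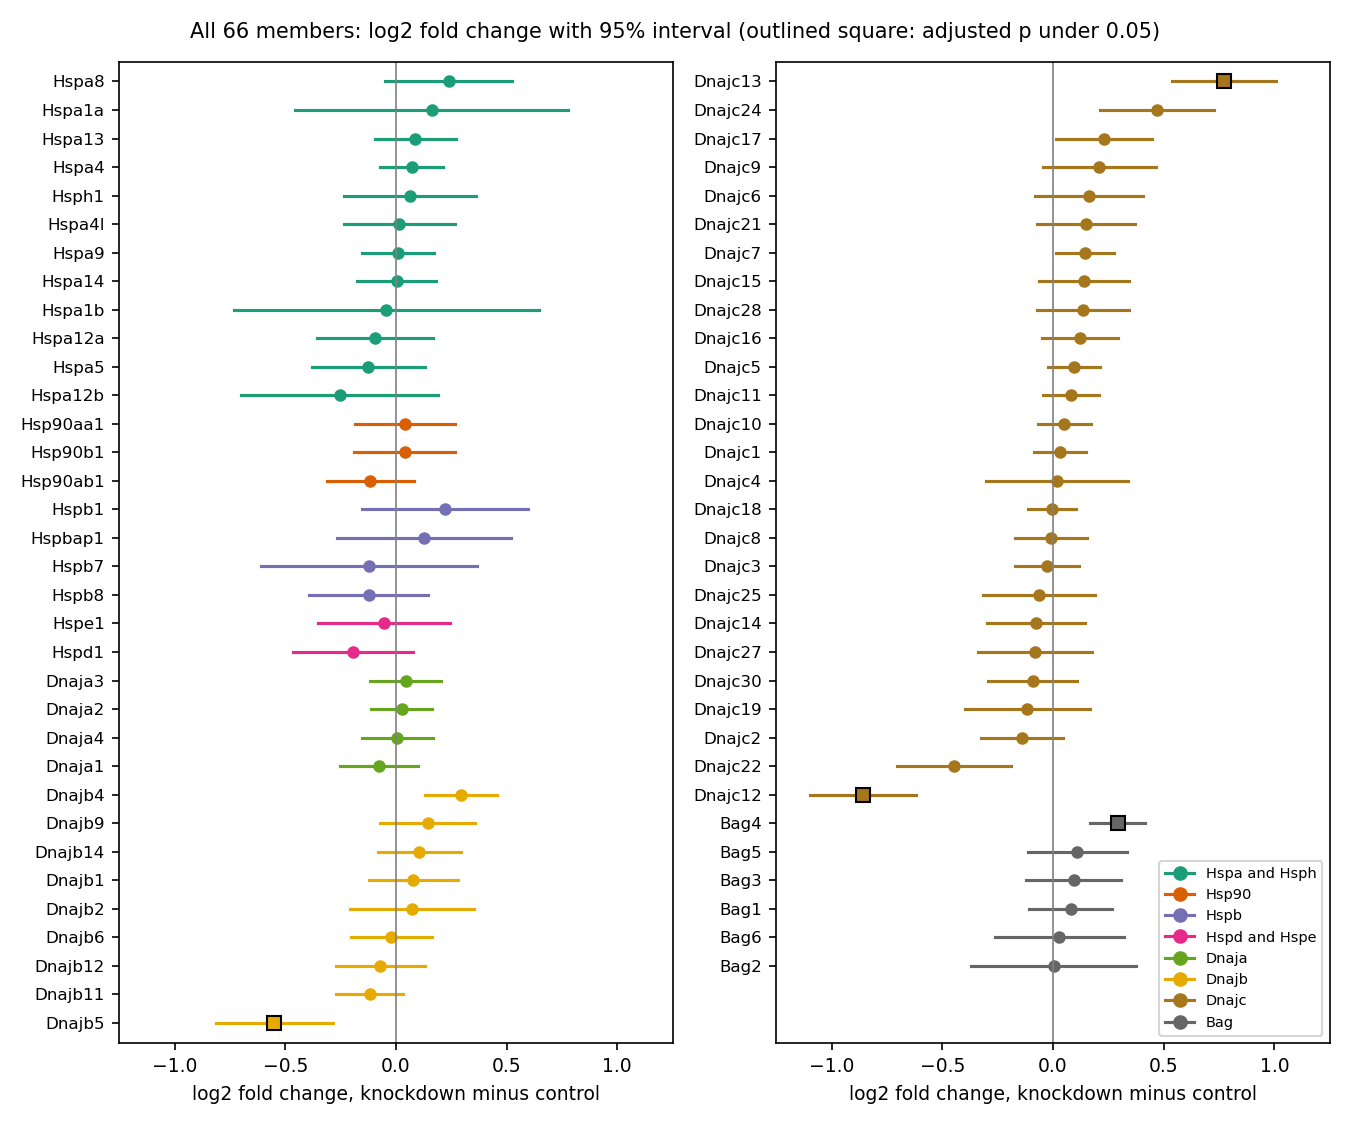
Log2 fold change of each of the 66 members, knockdown minus control, on the horizontal axis, grouped by family along the vertical axis. Points are limma estimates with 95% intervals, and outlined squares mark the 4 genes past an adjusted p of 0.05; most other points lie within 0.3 of 0.

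Dnajc13 encodes RME-8, a J-domain protein of endosomes that recruits Hsp70 to endosomal membranes. It rose to 13.41, 13.23 and 13.04 in the knockdown libraries, against 12.37, 12.61, 12.31 and 12.53 in the controls. All knockdown libraries were above all control libraries, with knockdown replicate 1 the highest. On the log2 scale the difference was 0.77 (SE 0.10, 95% CI 0.54 to 1.01), a 1.71-fold difference (limma, Benjamini-Hochberg adjusted p = 0.00672). The gene lies on GRCm38 chromosome 9, 104151282 to 104262930, minus strand, and overlaps the annotated Hmgb1-rs16 on its own strand and Gm37563 on the other. Strand use in counting is not stated, so reads of overlapping genes cannot be told apart.

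Dnajc12 encodes a co-chaperone of the aromatic amino acid hydroxylases, a role known from human families with high phenylalanine. It fell to 8.50, 8.45 and 8.58 in knockdown libraries, against 9.29, 9.59, 9.17 and 9.41 in control libraries. The groups were well apart, and the knockdown libraries varied less (SD 0.065) than the controls (SD 0.18). This was a log2 fold change of -0.86 (SE 0.105, 95% CI -1.10 to -0.62; limma, Benjamini-Hochberg adjusted p = 0.00481), so that the control level was 1.81 times the knockdown level. Dnajc12 lies on chromosome 10, 63382443 to 63410576, plus strand, with no overlapping gene annotated.

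Bag4, also called silencer of death domains, is a nucleotide exchange factor of Hsp70 that binds receptors of the tumour necrosis factor family. It rose to 11.14, 11.23 and 11.21 in knockdown libraries, against 10.86, 10.96, 10.94 and 10.83 in control libraries. The difference was small but so was the spread between animals: Bag4 had a log2 fold change of 0.29 (SE 0.055, 95% CI 0.17 to 0.42; limma, Benjamini-Hochberg adjusted p = 0.0309). Bag4 lies on chromosome 8, 25764538 to 25785287, minus strand, and overlaps Gm17484 on the other strand.

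Dnajb5, a class B J-domain protein also called Hsc40, fell to 6.89, 7.12 and 7.23 in knockdown libraries, against 7.60, 7.76, 7.61 and 7.55 in control libraries. Its knockdown libraries were more scattered than its controls. Dnajb5 had a log2 fold change of -0.55 (SE 0.12, 95% CI -0.81 to -0.28; limma, Benjamini-Hochberg adjusted p = 0.0457). Dnajb5 lies on chromosome 4, 42949814 to 42959425, plus strand. Of these 4 genes Dnajc13 and Dnajb5 have a promoter window, and neither the window of Dnajc13 (chr9:104262881-104263180, minus strand) nor any of the 3 windows of Dnajb5, of which that at chr4:42949617-42949916 is shown, holds the letters of the elements searched, the shorter form included.
Dnajc13: ['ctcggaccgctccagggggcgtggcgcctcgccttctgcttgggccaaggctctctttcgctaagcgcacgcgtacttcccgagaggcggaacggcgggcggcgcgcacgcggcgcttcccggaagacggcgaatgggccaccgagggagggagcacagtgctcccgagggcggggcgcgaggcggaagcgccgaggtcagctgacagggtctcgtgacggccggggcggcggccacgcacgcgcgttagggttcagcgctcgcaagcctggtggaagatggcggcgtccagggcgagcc']
Dnajb5: ['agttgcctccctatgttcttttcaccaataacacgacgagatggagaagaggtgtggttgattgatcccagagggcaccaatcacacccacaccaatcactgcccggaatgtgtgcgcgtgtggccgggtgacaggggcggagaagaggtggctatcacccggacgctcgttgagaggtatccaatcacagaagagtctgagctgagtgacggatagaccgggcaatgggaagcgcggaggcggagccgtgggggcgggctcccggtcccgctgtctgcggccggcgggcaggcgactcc']

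**Figure D2:**
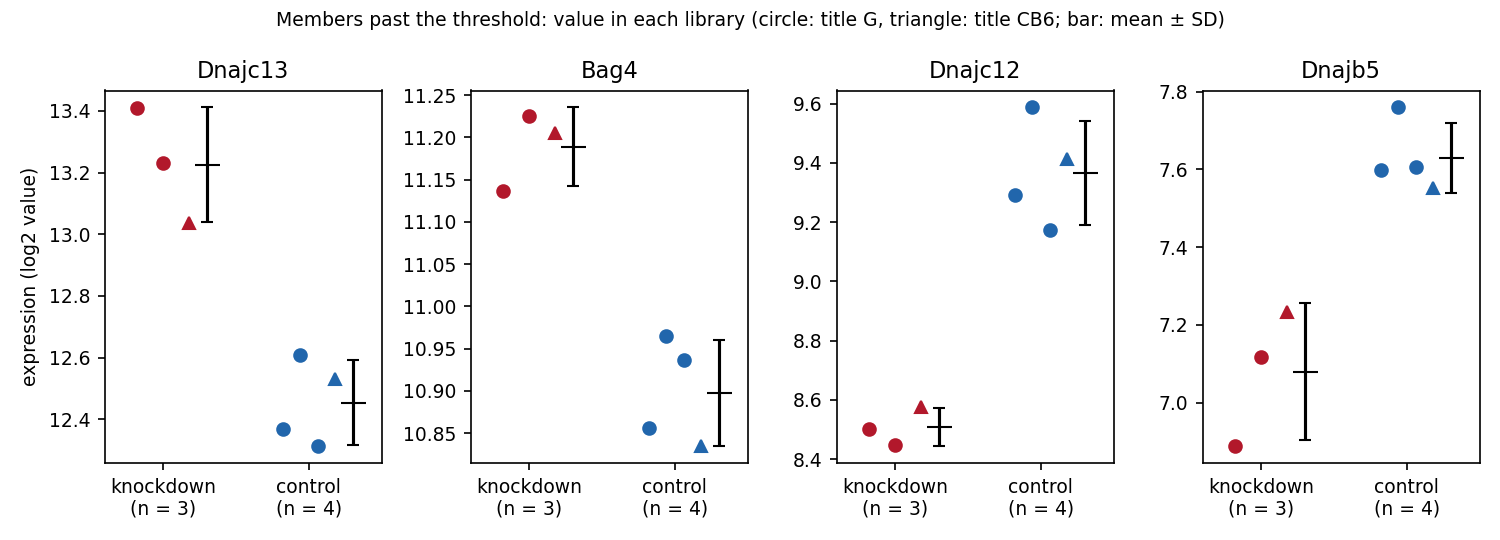
Log2 expression of Dnajc13, Bag4, Dnajc12 and Dnajb5 in each library, with knockdown left of control in every panel, circles for titles beginning with G, triangles for CB6 and bars for mean ± SD. The groups do not overlap in any panel, and the vertical axes differ between panels and do not start at 0.

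The 4 calls differed in how far they held. By exact permutation of the group labels, two-sided, p was 0.0286 for each, the smallest that 3 against 4 libraries allow. Dnajc5, which did not pass, had the same p by this test, so it does not rank the calls. As the 4 genes were picked in these same libraries, it is no separate support either. Within the libraries titled G the differences were 0.89 for Dnajc13, -0.88 for Dnajc12, 0.26 for Bag4 and -0.65 for Dnajb5, and within the CB6 pair they were 0.51, -0.84, 0.37 and -0.32 in the same order. With title style as a covariate, where 1.47% of all genes passed, Dnajc12 (adjusted p = 0.0128) and Dnajc13 (adjusted p = 0.0145) passed by limma with Benjamini-Hochberg adjustment, while Bag4 (adjusted p = 0.0889) and Dnajb5 (adjusted p = 0.115) did not. In the libraries titled G alone, where 0.309% of all genes passed, none of the 4 did, with adjusted p (limma, Benjamini-Hochberg) from 0.0546 for Dnajc13 to 0.341 for Bag4. Dnajc12 and Dnajc13 passed with each of the 7 libraries left out in turn. Bag4 did not pass without any one of knockdown replicates 1, 2 and 3 or control replicates 1 and 4, and Dnajb5 did not pass without any one of the 7 libraries. Over the 16 other settings Bag4 had an adjusted p (limma, Benjamini-Hochberg) from 0.0237 to 0.341, and over 15 settings Dnajb5 had one from 0.0347 to 0.213.

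Markers of several cell types differed between the same libraries. Over all genes 3.02% passed the threshold and 56.2% had a positive log2 fold change. The mean log2 value of 10 proximal tubule markers, of which 3 fell past the threshold, was 12.85, 12.50 and 12.62 in knockdown libraries and 13.07, 13.38, 13.23 and 13.38 in control libraries, and 9 of 10 had a negative log2 fold change. Cyp2e1, a cytochrome P450, alone had a log2 fold change of -3.26, against a median of -0.31 over the 10. Without it, a choice made after its value was seen, the means overlapped, from 12.79 to 13.12 in knockdown and from 13.05 to 13.36 in control libraries. The summed antilogarithms of all 10, in kilo-units, ran from 117 to 153 in knockdown and from 138 to 175 in control libraries. Of 10 podocyte markers 8 were negative and 2 fell past the threshold, Magi2 (log2 fold change -0.70) and Clic3 (-1.01), with mean log2 values from 12.70 to 12.91 in knockdown and from 12.78 to 13.28 in control libraries. Their sums, in the same unit, ran from 226 to 275 in knockdown libraries and from 199 to 273 in control libraries. Of 6 mesangial markers 5 were negative and 2 fell past the threshold, Sfrp2 (-0.98) and Serpine2 (-0.39), with mean log2 values from 10.95 to 11.18 in knockdown and from 11.06 to 11.52 in control libraries. All 9 glomerular endothelial markers were negative, with 0 past the threshold and mean log2 values from 12.71 to 12.98 in knockdown and from 12.87 to 13.31 in control libraries. Distal nephron and collecting duct markers went the other way, with 6 of 7 positive, 2 past the threshold and mean log2 values from 12.47 to 12.76 in knockdown and from 12.07 to 12.62 in control libraries. Smooth muscle and renin cell markers had 4 of 5 positive and 0 past the threshold. Immune cell markers had 2 of 4 measured genes positive and 0 past the threshold. The part of these markers in the values of the 4 genes was not tested.

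A further 7 members had knockdown libraries all on one side of the controls without passing the threshold. In all 11 of 66 members did so (16.7%), 8 higher and 3 lower in knockdown, against 18.4% of all genes. Of the 7, Dnajb4 and Dnajc11 are named by the rule for named genes, and the other 5 were chosen after their values were seen. Dnajc24, which takes part in the synthesis of diphthamide on a translation factor, was at 6.96, 7.06 and 6.82 in knockdown libraries, against 6.49, 6.54, 6.33 and 6.53 in control libraries (difference 0.47 on the log2 scale, with an adjusted p of 0.0659 by limma and Benjamini-Hochberg). It passed without the intensity trend, as did 2.42% of all genes. Dnajc22, whose fly counterpart acts in clathrin-dependent endocytosis, was at 7.72, 7.81 and 7.64 in knockdown libraries, against 7.97, 8.11, 8.28 and 8.32 in control libraries (difference -0.45 on the log2 scale, with an adjusted p of 0.0764 by limma and Benjamini-Hochberg). Dnajb4, a cytosolic J-domain protein, was at 10.87, 10.81 and 10.65 in knockdown libraries, against 10.51, 10.47, 10.38 and 10.56 in control libraries (difference 0.29 on the log2 scale, with an adjusted p of 0.0676 by limma and Benjamini-Hochberg). Dnajc17 of the splicing machinery differed by 0.23, Dnajc7, which links Hsp70 and Hsp90, by 0.15, the vesicle protein Dnajc5 by 0.094 and the mitochondrial Dnajc11 by 0.083, each on the log2 scale and with an adjusted p (limma, Benjamini-Hochberg) of 0.222 or more.

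None of 13 cytosolic and nuclear members of the heat shock response passed, against 3.02% of all genes. This list of stress-induced genes also holds constitutive ones. At an unadjusted p under 0.05 (limma) there was 1 (7.69%), against 18.4% of all genes, and the median log2 fold change was 0.062. Hspa1a, Hspa1b, Hsph1, Hspa4l, Bag3 and Hsp90aa1 were positive within the libraries titled G and negative within the CB6 pair. The differences were 0.23 and -0.34 for Hsph1, 0.14 and -0.29 for Hspa4l, 0.20 and -0.16 for Bag3, and 0.14 and -0.19 for Hsp90aa1. The other members of the list had the same sign in both. The constitutive Hsp70 gene Hspa8 was at 16.37, 16.02 and 16.20 in knockdown libraries, against 16.17, 15.78, 15.95 and 15.92 in control libraries. Knockdown replicate 1 was the highest of all and control replicate 2 the lowest, and the groups overlapped (log2 fold change 0.24, 95% CI -0.049 to 0.52). Hsp90aa1 and Hsp90ab1, the inducible and the constitutive cytosolic Hsp90, differed by 0.041 (95% CI -0.19 to 0.27) and -0.11 (95% CI -0.31 to 0.083) on the log2 scale. Dnajb1, a heat-induced J-domain protein, differed by 0.079, Dnaja1 by -0.076, Hsph1 by 0.062 and Hspa4l by 0.016. Bag3, which directs damaged filament proteins to autophagy together with the small heat shock protein Hspb8, differed by 0.094, and Hspb8 by -0.12. Hspb1 was at 10.33, 10.17 and 10.17 in knockdown libraries, against 10.32, 9.53, 10.12 and 10.04 in control libraries. Control replicate 2 stood below the other six, and the difference of 0.22 (95% CI -0.15 to 0.60) did not pass (limma, Benjamini-Hochberg adjusted p = 0.522).

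Hspa1a and Hspa1b, the strictly stress-induced Hsp70 genes, varied the most among the 66 members. Hspa1a was at 8.61, 9.07 and 8.20 in knockdown libraries, against 8.78, 7.93, 8.26 and 8.88 in control libraries. Hspa1b was at 9.17, 8.77 and 8.22 in knockdown libraries, against 8.54, 8.14, 9.07 and 9.29 in control libraries. Each group held both high and low animals, and knockdown replicate 3 and control replicate 2 were low for both genes. The within-group SD was 0.44 for Hspa1a and 0.50 for Hspa1b on the log2 scale, at the 97.7th and 98.5th percentile of all genes, while the median was 0.12 over members and 0.13 over all genes. The log2 fold changes were 0.16 (95% CI -0.45 to 0.78) and -0.043 (95% CI -0.73 to 0.645), so differences inside these intervals could not be told from 0. Within the libraries titled G they were 0.51 and 0.38, and within the CB6 pair the differences were -0.69 and -1.07. The 2 title styles thus went opposite ways for both genes. The paralogs are near copies: 62.3% of the 50-base words of an annotated Hspa1b transcript also occur in Hspa1a, and their promoter windows are identical at 296 of 300 bases. How reads were shared between them is not stated, and the values of each gene alone are uncertain. The log2 of their summed antilogarithms was 9.92, 9.93 and 9.21 in knockdown libraries and 9.67, 9.04, 9.72 and 10.10 in control libraries, which overlap as well. In the windows of Hspa1a (chr17:34972107-34972406, minus strand) and Hspa1b (chr17:34959189-34959488, minus strand), capitals mark the bases that differ.
Hspa1a: ['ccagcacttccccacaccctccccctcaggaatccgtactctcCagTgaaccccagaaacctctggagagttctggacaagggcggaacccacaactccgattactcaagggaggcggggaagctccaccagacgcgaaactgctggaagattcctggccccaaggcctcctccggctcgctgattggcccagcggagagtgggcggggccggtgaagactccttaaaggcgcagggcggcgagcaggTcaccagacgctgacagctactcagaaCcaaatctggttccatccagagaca']
Hspa1b: ['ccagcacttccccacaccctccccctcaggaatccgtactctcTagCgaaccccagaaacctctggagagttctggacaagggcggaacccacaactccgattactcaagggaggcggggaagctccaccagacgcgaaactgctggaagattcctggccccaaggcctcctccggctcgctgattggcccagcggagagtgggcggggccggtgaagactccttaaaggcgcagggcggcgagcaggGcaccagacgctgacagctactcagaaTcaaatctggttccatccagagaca']

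**Figure D3:**
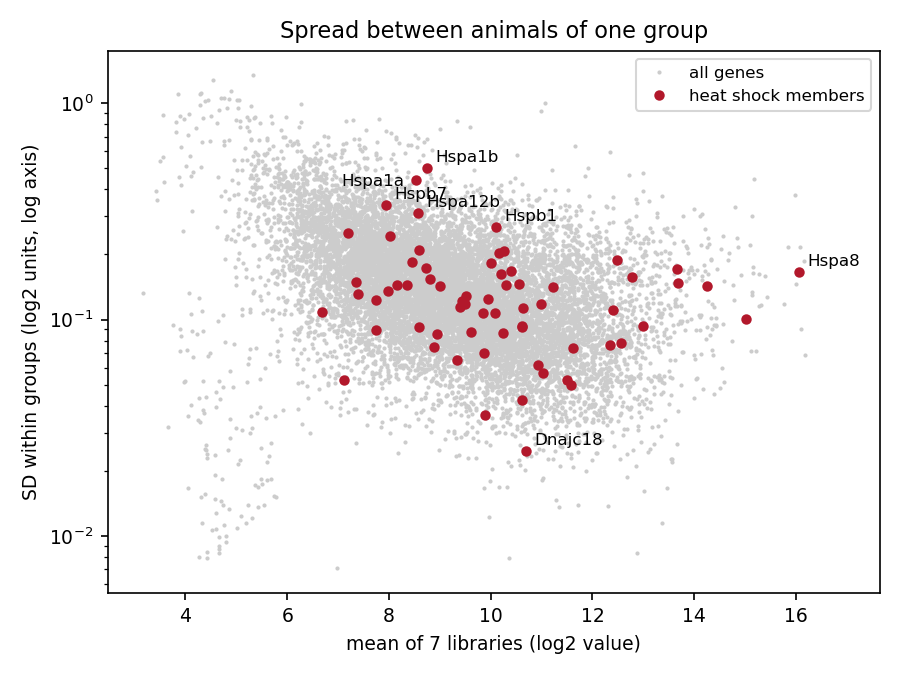
SD within groups (vertical log axis, log2 units) against the mean of the 7 libraries (horizontal axis, log2 value) for all 12958 genes in grey and the 66 members in red. Hspa1b and Hspa1a lie highest among the members and Dnajc18 lies lowest.

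Of the 8 ER members 0 passed the threshold, against 3.02% of all genes, and 0 had an unadjusted p under 0.05 (limma), against 18.4%. Hspa5, the ER Hsp70 also called BiP, was at 13.67, 13.61 and 13.52 in knockdown libraries, against 13.97, 13.49, 13.62 and 13.82 in control libraries. The highest and the lowest values were both in controls (log2 fold change -0.12, 95% CI -0.38 to 0.13). Hsp90b1, the ER Hsp90, was at 14.45, 14.24 and 14.16 in knockdown libraries, against 14.28, 14.29, 14.05 and 14.36 in control libraries (log2 fold change 0.039, 95% CI -0.19 to 0.27). Dnajc3, which inhibits a kinase of the unfolded protein response, differed by -0.028 (95% CI -0.17 to 0.12). These 3 hold the ER stress element shown above. The ER J-domain proteins Dnajb9, Dnajb11, Dnajc10 and Dnajc1 differed by 0.14, -0.12, 0.051 and 0.032, and the Hsp70-like Hspa13 by 0.088. Hsp90b1 and Dnajb9 were positive within the libraries titled G (0.14 and 0.28) and negative within the CB6 pair (-0.20 and -0.19). The other ER members had the same sign in both.

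The 9 mitochondrial members had 0 past the threshold, against 3.02% of all genes, and 0 at an unadjusted p under 0.05 (limma), against 18.4%. Hspd1, the mitochondrial Hsp60, was at 12.55, 12.26 and 12.29 in knockdown libraries, against 12.41, 12.81, 12.37 and 12.67 in control libraries. Hspe1, its Hsp10 lid, was at 10.44, 10.19 and 10.05 in knockdown libraries, against 10.24, 10.43, 9.99 and 10.46 in control libraries. The 2 genes are annotated in overlap on opposite strands, so that unstranded reads there cannot be told apart. Both had their 3 highest values in control replicates 2 and 4 and knockdown replicate 1, as did Hspa9, the mitochondrial Hsp70. This was not particular to mitochondrial members: the cytosolic Hsp90aa1 and Hspa4l and the ER Hsp90b1 were among others with the same 3 libraries. The other mitochondrial members did not have them. Log2 fold changes were -0.20 (95% CI -0.47 to 0.075) for Hspd1, -0.053 (95% CI -0.35 to 0.25) for Hspe1 and 0.0073 (95% CI -0.16 to 0.17) for Hspa9. The J-domain proteins Dnaja3, Dnajc15, Dnajc19, Dnajc28 and Dnajc30 differed by 0.043, 0.14, -0.12, 0.14 and -0.093. Within the libraries titled G, Hspe1, Hspa9 and Dnajc15 were positive (0.094, 0.048 and 0.21). Within the CB6 pair they were negative (-0.41, -0.091 and -0.014). The other mitochondrial members had the same sign in both. Sequence shared with other genes limits how far several members can be read: 44.8% of the 50-base words of Hspd1, 73.2% of those of Hspa8, 58.5% of those of Hsp90aa1, 51.6% of those of Hspb1 and 36.1% of those of Hspe1 also occur in transcripts of other genes.

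**Figure D4:**
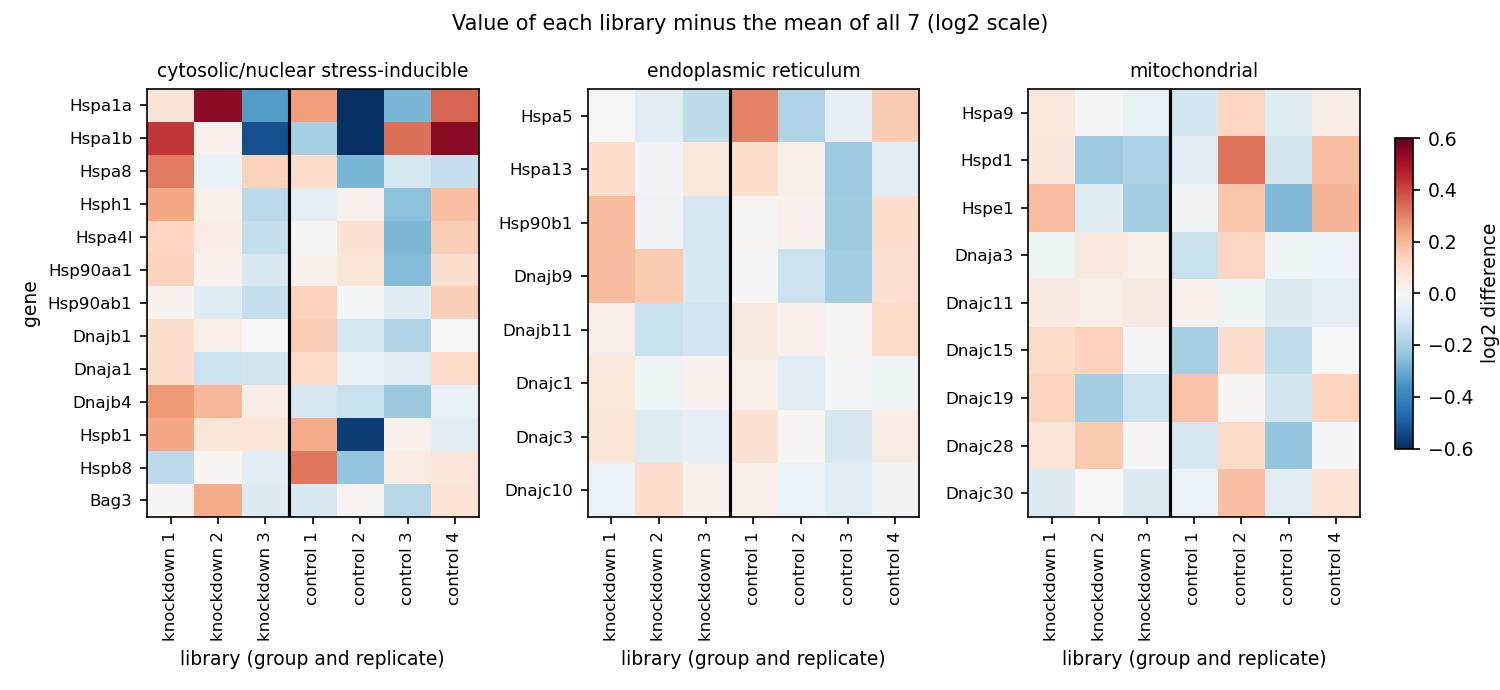
Value of each library minus the mean of all 7 libraries on the log2 scale (colour, from -0.6 to 0.6), for the 13 cytosolic and nuclear, 8 ER and 9 mitochondrial members (rows), with the 3 knockdown libraries left of the 4 control libraries (columns). In most rows knockdown replicate 1 is the highest knockdown column in the cytosolic and ER blocks, and control replicate 3 is the lowest control column in all 3 blocks.

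The libraries of one group differed from each other across members. Knockdown replicate 1 held the highest knockdown value in 34 of 66 members (51.5%, against 36.6% of all genes), including 10 of the 13 cytosolic and 7 of the 8 ER members. Control replicate 3 held the lowest control value in 34 of 66 members (51.5%, against 33.2% of all genes), including 6 of the 8 ER and 6 of the 9 mitochondrial members. The summed antilogarithms of all 66 members were, in kilo-units, 266, 237 and 237 in knockdown libraries and 247, 226, 221 and 241 in control libraries, which overlap. The mean log2 value of 20 immediate early genes, which respond within minutes to handling and signals, followed another order: it was 9.33, 9.71 and 9.71 in knockdown libraries and 9.40, 9.06, 9.36 and 9.04 in control libraries. Knockdown replicate 1, the highest for heat shock genes, was the lowest knockdown library for these. The sum over the 20 genes ran, in kilo-units, from 21.5 to 26.3 in knockdown and from 18.7 to 23.4 in control libraries. Of the 20 genes 18 had a positive log2 fold change (90%, against 56.2% of all genes). The threshold was passed by 2 (10%, against 3.02% of all genes), Gadd45b higher and Klf6 lower. The part of these genes in the members' values was not tested.

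**Figure D5:**
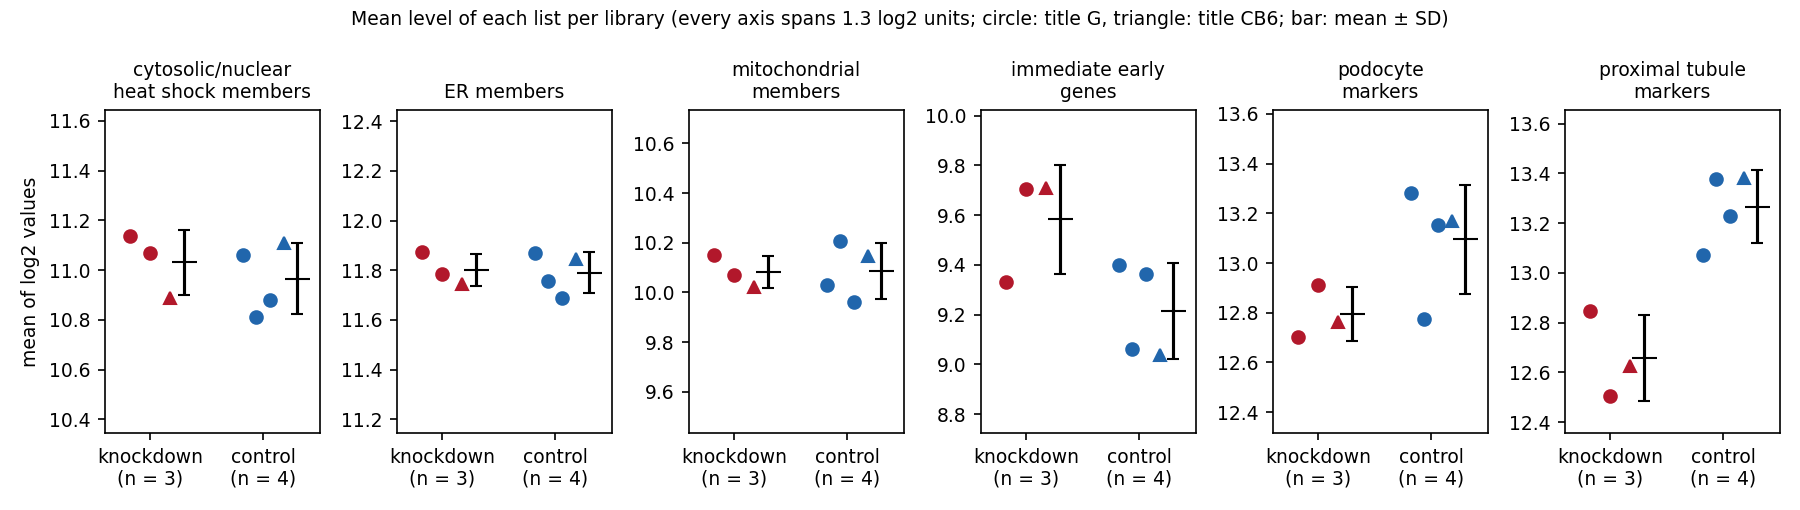
Mean log2 value per library of the 3 groups of members, of immediate early genes and of podocyte and proximal tubule markers, knockdown left of control in each panel, with circles for titles beginning with G, triangles for CB6 and bars for mean ± SD. The 3 groups of members overlap between knockdown and control. The proximal tubule markers do not, but they do without Cyp2e1.

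Of 78 measured chaperone partners outside the rule 0 passed (limma, Benjamini-Hochberg), against 3.02% of all genes. An unadjusted p under 0.05 was found for 7, 8.97% against 18.4% of all genes. Among 25 heat shock factors and partners of Hsp70 and Hsp90, with a median log2 fold change of 0.046, the smallest p was that of Cdc37l1, a relative of the Hsp90 partner of kinases, which differed by 0.21 (limma, Benjamini-Hochberg adjusted p = 0.0885). Among 15 genes of the cytosolic chaperonin and prefoldin, median -0.022, it was that of the chaperonin subunit Cct2, at -0.16 (limma, Benjamini-Hochberg adjusted p = 0.1003). Among 24 genes of the unfolded protein response and ER folding, median -0.0048, it was that of Edem1, which targets misfolded glycoproteins for degradation, at -0.23 (limma, Benjamini-Hochberg adjusted p = 0.0977). Among 14 mitochondrial partners and proteases, median 0.056, it was that of the protease Yme1l1, at 0.15 (limma, Benjamini-Hochberg adjusted p = 0.27). Hsf1, the main heat shock factor, is one of 107 genes whose values in the libraries titled G differed only by offsets common to those genes (within 0.003). Its values of 4.88, 4.89 and 4.84 in knockdown and 4.85, 4.85, 4.85 and 4.93 in control libraries therefore carry nothing specific to Hsf1 between those 5 libraries. No heat shock member was among these 107 genes.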

How the data were processed

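Glomerular RNA was sequenced in 7 libraries (3 knockdown, 4 control), 1 table per library. The deposited values are log values per gene symbol, taken as log2, although the base is not stated. Reads were aligned with BWA to mm10, per the submitters' processing notes. How reads were counted, by strand or not, and normalized is not given in the sources used, and without counts neither depth nor counting error can be given. The design text counts animals, so libraries are taken as 1 animal each.

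Groups were compared by limma 3.58.1 (R 4.3.3), fitted with an intensity trend to all 12958 genes. P-values were adjusted by Benjamini-Hochberg, and calls were made at 0.05. Genes had to exceed the lowest table value in 3 or more libraries, which left out 0 genes, so all 66 members were tested. The fit was tested on simulated data with independent noise and no title styles. It called 83 of 100 genes changed by 0.5, 99 of 100 changed by 1 and 10 of 12758 unchanged genes. As the simulation held no title styles, it does not show how well error is controlled in these libraries. Exact permutation tests used all 35 splits. In members such as Dnajc13, Dnajc12, Hspa1a and Hspa8, the CB6 pair averaged nearly the same as the libraries titled G. An adjustment for title style is not stated in the sources used. With values centred in this way, p-values of the fit without title style are too small. Calls are then better read from the fit with title style as a covariate. Genes named are members past the threshold, the 2 of each family with the smallest p, the 30 members of 3 compartment lists, 5 whose groups did not overlap (chosen after their values were seen), the partner of each list with the smallest p, and Shroom3. Members and lists were chosen with earlier results of these data known.

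Coordinates come from GENCODE M21 on GRCm38, which held all 66 members, and promoter windows from RefSeq on GRCm38.p6. Transcripts were compared by 50-base words of the sense strand. Alternatives were quantile normalization, a common median, a common mean of the 2000 genes highest in mean, no filter, genes above the median mean, no trend, robust empirical Bayes, title style as a covariate, the libraries titled G alone, leaving out each library and thresholds of 0.01 and 0.1.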

Additional observations from a re-analysis of the deposited data

How the results depend on the processing

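The count of 4 members past the threshold was 3 or 4 under the other scalings, without the filter, without the trend and with robust empirical Bayes. Without the trend Dnajc24 took the place of Bag4. The count was 2 among genes above the median mean (Dnajc12 and Dnajb5 were not among those), 2 with title style as a covariate, 0 in the libraries titled G alone, 2 at a threshold of 0.01 and 7 at 0.1, and it ran from 2 to 3 with a library left out. Over all genes, 391 became 191, 40, 124 and 846 with title style as a covariate, in the libraries titled G alone and at 0.01 and 0.1, and the count ran from 134 to 480 with a library left out. The 0 partner genes became 3 at a threshold of 0.1. In the libraries titled G alone Hspa1b had a log2 fold change of 0.38 and Hspe1 of 0.0945, against the sign over all libraries. In all, 9 of 66 members changed sign there, none past the threshold: these 2 and Bag6, Dnajb6, Dnajc4, Dnajc8, Hspa12a, Hspa14 and Hspbap1. Signs with a library left out were followed only in the 41 named members. Of these, the following, past no threshold, changed sign: Hsp90aa1 (-0.040 to 0.0996), Hsp90b1 (-0.045 to 0.10), Hspa1a (-0.061 to 0.38), Hspa1b (-0.27 to 0.21), Hspa4l (-0.073 to 0.093), Hspa9 (-0.030 to 0.052), Hspe1 (-0.16 to 0.034) and Hsph1 (-0.036 to 0.16). Of 41 members followed through 16 settings, 8 changed sign in any, none of them past the threshold, and the causes were not tested. The summed level of members differed by 0.080 on the log2 scale and the mean of log2 values by 0.021, within the spread between animals (SD 0.085). No paired analysis was possible because the labels give the groups no shared replicate numbers: the numbers used here follow record order and pair nothing.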

Other observations

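Genes near the 4 members past the threshold were read against the 3.02% of all genes that passed. Within 1000000 bases of Bag4, Dnajb5 and Dnajc12, 0 of 20, 0 of 24 and 0 of 18 measured genes passed (limma, Benjamini-Hochberg), and near Dnajc13 1 of 13 did, Acpp, in the downward direction. The single-animal pattern of the stress-induced Hsp70 copies was uneven: control replicate 3 was low for Hspa1a at 8.26 and high for Hspa1b at 9.07, while knockdown replicate 2 held the highest Hspa1a value of all libraries, 9.07. Control replicate 4, titled CB6, held the highest control value in 21 of 66 members (31.8%), against 15.4% of all genes. Knockdown replicate 3, the other CB6 library, held the lowest knockdown value in 37 of 66 members (56.1%), against 30.9% of all genes. As the CB6 values are not free of each other, these shares are not separate observations on 2 animals. Dnajc18, a J-domain protein, had the smallest within-group SD of the members, 0.025 on the log2 scale, at the 0.756th percentile of all genes.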
